A study of Gallus gallus with 6 samples.

Results

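Cullin-RING ligases are modular ubiquitin ligases in which a cullin scaffold holds a RING protein, which recruits the ubiquitin-loaded E2 enzyme, and an adaptor with a substrate receptor, which chooses the target. The genes described were the rows of the table whose symbol begins with CUL, COPS, FBXO, FBXL, FBXW, KLHL or ASB followed by a digit, together with ANKRD9, RBX1, RNF7, SKP1, SKP2 and DDB1. They numbered 126 of 24433 rows, and no symbol was on more than 1 row. CUL1 works with the adaptor SKP1 and F-box receptors, CUL3 with BTB proteins such as the KLHL family, CUL4A and CUL4B with DDB1, and CUL2 and CUL5 with elongins and SOCS box or related receptors such as the ASB family. Attachment of NEDD8 activates the cullin, and the COP9 signalosome removes it. ANKRD9 is itself an ankyrin repeat protein that in human cells has been described as a receptor of cullin ligases and as a regulator of IMPDH2, an enzyme of purine synthesis. The study concerned its part in purine metabolism of muscle cells.

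Polyadenylated RNA was sequenced from 6 samples of primary chicken myoblasts, which are muscle precursor cells, from leg muscle: 3 with ANKRD9 overexpression and 3 with pcDNA3.1, an empty expression vector. The backbone and promoter of the ANKRD9 construct, the way it was introduced, the day of harvest, the age of the birds and whether the samples of a group came from separate cultures are not given in the labels, so a p-value here speaks only of the variation among 6 libraries, part of which may be technical. The deposited values were FPKM, fragments scaled by gene length and by library size, which allows levels of different genes to be compared.

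The libraries held 16158627 to 26310089 recovered reads. Mean levels of at least 1 FPKM, the minimum for testing, were reached by 99 of the 126 genes and by 11685 of all genes. Of the other 27, KLHL23 was nearest to the minimum, at 0.999 FPKM over all libraries, and FBXL4, at 1.10 FPKM, was the lowest gene tested. The 99 tested genes lay on 24 chromosomes, and 97 of them had at least 100 reads in every library. Counts of differing genes use limma on log2(FPKM + 1), with p-values adjusted by Benjamini-Hochberg over all 11685 genes and a threshold of 0.05, and log2 differences are ANKRD9 minus pcDNA3.1 on that scale. For genes of low level such a difference is smaller than the true change. Folds are ratios of mean FPKM. Summed levels of a family or list cover all its genes in the table, tested or not.

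Myoblast genes were expressed in both groups. Of the 13 tested, 4 were higher and 5 lower, 69.2% called against 36.0% of all genes. MSTN had the largest difference of the 13, at 4.45 ± 0.836 FPKM in ANKRD9 cells and 12.7 ± 1.12 FPKM in pcDNA3.1 cells (limma, adjusted p = 2.48e-04). MYF5 had 370 ± 22.3 FPKM in ANKRD9 cells and 296 ± 14.8 FPKM in pcDNA3.1 cells, PAX7 had 24.0 ± 1.06 FPKM in ANKRD9 cells and 29.1 ± 2.42 FPKM in pcDNA3.1 cells, and MYOD1 had 116 ± 11.3 FPKM in ANKRD9 cells and 199 ± 6.77 FPKM in pcDNA3.1 cells (SD, n = 3 each). Other genes moved with the groups too. Over all genes tested, 16.3% were higher and 19.8% lower. Beside these shares, 100% of the cell cycle genes were lower, and of the fibroblast genes 80% were lower and 10% higher. Of the leukocyte genes 55.6% were higher. Of the 4 genes tested in each of the endothelial and adipocyte lists, 50% were higher and 25% lower. All 33 cell cycle genes tested were lower, with a summed level of 904 to 947 FPKM in the ANKRD9 libraries and 1337 to 1381 FPKM in the pcDNA3.1 libraries. Of 10 fibroblast genes 8 were lower and 1 higher (sums of 1789 to 1936 FPKM in ANKRD9 cells and 2229 to 2281 FPKM in pcDNA3.1 cells). Of 9 leukocyte genes 5 were higher (sums of 91.7 to 101 FPKM in ANKRD9 cells and 68.5 to 78.6 FPKM in pcDNA3.1 cells). NCF1, the highest of the leukocyte genes tested, had 41.7 ± 2.00 FPKM in ANKRD9 cells and 24.3 ± 0.518 FPKM in pcDNA3.1 cells. Log2 differences were below 0 for 2 of the 9 leukocyte genes. PTPRC, the pan-leukocyte marker, did not pass, at 2.18 ± 0.305 FPKM in ANKRD9 cells and 1.75 ± 0.166 FPKM in pcDNA3.1 cells. Of 4 endothelial genes 2 were higher and 1 lower (32.4 to 34.1 FPKM in ANKRD9 cells and 27.0 to 29.0 FPKM in pcDNA3.1 cells), of 4 adipocyte genes likewise 2 and 1 (30.4 to 31.6 FPKM in ANKRD9 cells and 26.7 to 27.2 FPKM in pcDNA3.1 cells), and no erythroid gene reached the minimum, HBZ being listed at 0. Mitochondrial RNA took 0.438% to 0.549% of reads with ANKRD9 and 0.316% to 0.374% with pcDNA3.1. The part of any of these in the differences below was not tested, and in bulk RNA fewer cells of a type and less RNA per cell cannot be told apart.

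ANKRD9, the gene carried by the construct, was measured at 90.5, 104 and 101 FPKM in the ANKRD9 libraries and at 9.46, 8.16 and 10.1 FPKM in the pcDNA3.1 libraries. The groups were far apart, with a 10.7-fold difference and a log2 difference of 3.29 ± 0.08 (SE; limma, adjusted p = 5.44e-06). With 3 libraries a side, p cannot go below 0.1 in a two-sided exact permutation test, and it was 0.1. The gene lies on chromosome 5: 49842186-49843779 (minus strand, GRCg6a), and transcripts of the construct and of the chromosomal gene cannot be told apart in these values. Set beside the cullin of the ASB receptors, the ANKRD9 level was 5.39 ± 0.509 times that of CUL5 in ANKRD9 libraries and 0.475 ± 0.0357 times in pcDNA3.1 libraries (SD, n = 3 each). It was also 1.62 ± 0.136 times the summed level of the 17 ASB genes with ANKRD9 and 0.158 ± 0.0197 times with pcDNA3.1. One gene thus stood above the whole ASB family in the overexpressing cells.

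**Figure D1:**
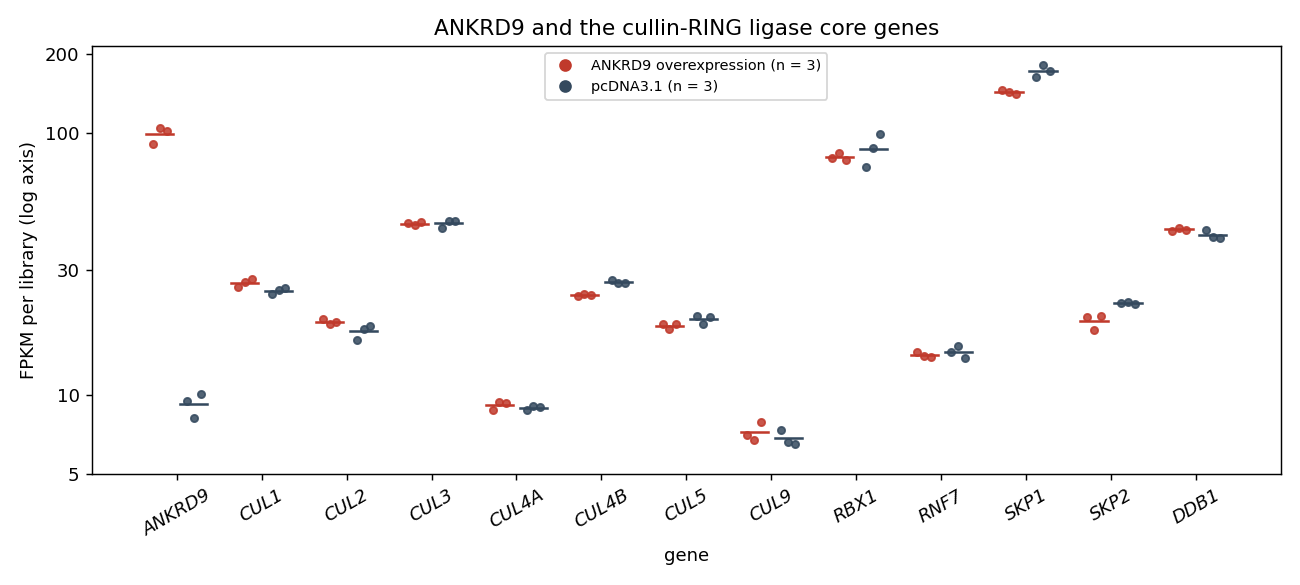
FPKM of ANKRD9, the cullins, the RING proteins RBX1 and RNF7, the adaptors SKP1 and DDB1 and the F-box protein SKP2, on a log axis; points are libraries and bars are group means. ANKRD9 is 10.7-fold apart between the groups, while among the other genes CUL4B, SKP1 and SKP2 passed the test, all lower with ANKRD9.

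Of the 99 tested genes, ANKRD9 included, 22 were higher, 18 were lower and 59 did not pass. As shares these were 22.2% higher and 18.2% lower, against 16.3% and 19.8% of all genes tested, and 40.4% called in either direction against 36.0%. The shares were near those of the transcriptome. The 3 values of one group lay wholly outside those of the other for 59 members, or 59.6%, against 50.6% of all genes. The differences were small. The median absolute log2 difference was 0.15 among the members and 0.14 among all genes, and a log2 difference of at least 1.5-fold was called for ANKRD9 and FBXO2 only, 2.02% of the members against 3.44% of all genes. When single libraries were left out, 12 to 19 members were higher and 11 to 14 lower. The number of higher members was 14 without ANKRD9 replicate 1, 12 without ANKRD9 replicate 2, 12 without ANKRD9 replicate 3 and 14 without pcDNA3.1 replicate 3. The number of lower members was 11 without ANKRD9 replicate 2. In all 6 such fits 9 higher and 10 lower members kept their calls. Of the 40 called members 14 overlap another gene of the table, named below where that gene is at a like or higher level.

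**Figure D2:**
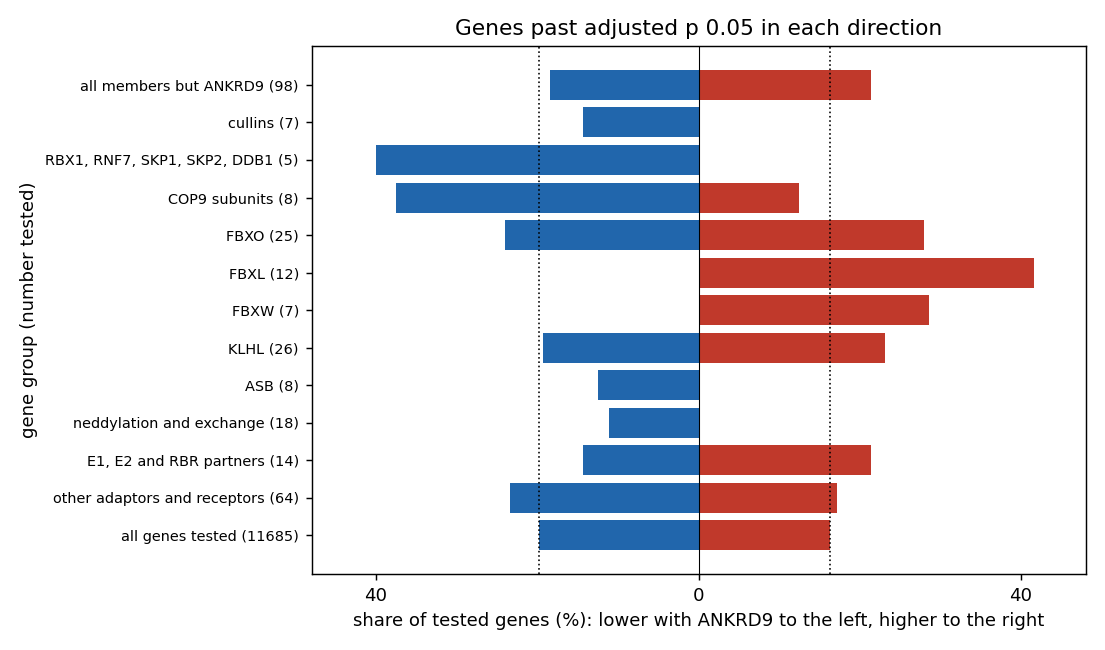
Share of tested genes past adjusted p 0.05 in each direction (limma), lower with ANKRD9 to the left and higher to the right, with the number tested in brackets; dotted lines mark the shares over all genes, 19.8% lower and 16.3% higher. The members other than ANKRD9 lie near the dotted lines as a whole, and the FBXL and FBXW bars run only to the right. The cullin, core, ASB and neddylation bars run only to the left, on 1, 2, 1 and 2 called genes. Called or not, log2 differences were above 0 for 4 of 7 cullins, 1 of 5 core, 6 of 8 ASB and 10 of 18 neddylation genes. They were below 0 for 5 of 12 FBXL and 2 of 7 FBXW genes.

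The cullin scaffolds were nearly level between the groups. CUL3 was the most abundant cullin, at 45.0 ± 0.562 FPKM with ANKRD9 and 45.1 ± 1.64 FPKM with pcDNA3.1, followed by CUL1, CUL4B, CUL5, CUL2, CUL4A and CUL9 in the order of their means over all libraries. CUL5 and CUL2 were close neighbours in this order, at 18.4 ± 0.484 and 19.0 ± 0.358 FPKM with ANKRD9 and at 19.4 ± 0.722 and 17.4 ± 1.06 FPKM with pcDNA3.1 (SD, n = 3 each). The summed level of the 7 cullins was 149 ± 2.06 FPKM with ANKRD9 and 150 ± 2.24 FPKM with pcDNA3.1. CUL4B alone passed the test, that is 14.3% of the 7 cullins against 36.0% of all genes. CUL4B was measured at 23.8, 24.2 and 24.1 FPKM with ANKRD9 and at 27.4, 26.6 and 26.6 FPKM with pcDNA3.1. The groups did not overlap, and the log2 difference was -0.16 ± 0.04 (SE; limma, adjusted p = 0.0137).

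CUL4A, the paralog of CUL4B, had 9.16 ± 0.351 FPKM in ANKRD9 cells and 8.94 ± 0.149 FPKM in pcDNA3.1 cells, so that CUL4B was 2.63 ± 0.0774 times the level of CUL4A with ANKRD9 and 3.01 ± 0.0992 times with pcDNA3.1. CUL1 (26.7 ± 0.955 FPKM in ANKRD9 cells and 25.0 ± 0.661 FPKM in pcDNA3.1 cells) and CUL2 had groups that did not overlap but did not pass, with 95% intervals of the log2 difference from -0.01 to 0.19 and from 0.00 to 0.24. For CUL3, CUL5, CUL4A and CUL9 the intervals ran from -0.10 to 0.09, from -0.18 to 0.03, from -0.08 to 0.14 and from -0.10 to 0.24. CUL9, a large cullin known to bind p53, was the lowest at 7.21 ± 0.605 FPKM in ANKRD9 cells and 6.82 ± 0.468 FPKM in pcDNA3.1 cells.

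Among the RING proteins and adaptors, SKP1, which links F-box receptors to CUL1, was lower. Its levels were 145, 143 and 140 FPKM with ANKRD9 and 163, 181 and 171 FPKM with pcDNA3.1, the highest of all members in every library. The fall was 1.20-fold, with a log2 difference of -0.27 ± 0.05 (SE; limma, adjusted p = 0.00455). CUL1 did not pass, and the ratio of SKP1 to CUL1 was 5.34 ± 0.283 with ANKRD9 and 6.88 ± 0.309 with pcDNA3.1, without overlap. RBX1, the RING protein of most cullins, gave 80.3, 83.3 and 78.7 FPKM with ANKRD9 and 74.2, 87.2 and 99.1 FPKM with pcDNA3.1. Here the pcDNA3.1 libraries spread over the ANKRD9 values, and RBX1 passed only without pcDNA3.1 replicate 1 (adjusted p = 0.0428, limma, against 0.469 with all libraries). RNF7, the RING partner of CUL5, stood at 14.2 ± 0.304 FPKM in ANKRD9 cells and 14.6 ± 0.807 FPKM in pcDNA3.1 cells, and DDB1 at 42.7 ± 0.676 FPKM in ANKRD9 cells and 40.6 ± 1.55 FPKM in pcDNA3.1 cells, and neither passed.

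SKP2, the F-box protein that targets the cell cycle inhibitor p27, was measured at 19.9, 17.6 and 20.0 FPKM with ANKRD9 and at 22.3, 22.6 and 22.3 FPKM with pcDNA3.1. It was lower by a log2 difference of -0.22 ± 0.05 (SE; limma, adjusted p = 0.0185), with adjusted p = 0.0502 without pcDNA3.1 replicate 2 and 0.0507 without pcDNA3.1 replicate 3. SKP2 overlaps LMBRD2 on the opposite strand, and the strand setting of the counting is not given. The fall of SKP2 stood beside that of the 33 cell cycle genes, and the part of the one in the other was not tested.

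Of 8 tested COP9 signalosome genes with a COPS symbol, 3 were lower, 1 was higher and 4 did not pass. As shares, 37.5% were lower and 12.5% higher against 19.8% and 16.3% of all genes. The calls of COPS4 and COPS7A rested on nearly the full set of libraries, as given below. COPS2 and COPS8 were the firmest. COPS2 gave 35.8, 34.0 and 35.1 FPKM with ANKRD9 and 39.7, 41.9 and 40.9 FPKM with pcDNA3.1, and COPS8 33.1, 32.8 and 35.1 FPKM with ANKRD9 and 38.7, 39.1 and 39.3 FPKM with pcDNA3.1. Both groups were separate for both genes, with log2 differences of -0.22 ± 0.04 and -0.21 ± 0.04 (SE; limma, adjusted p = 0.00554 and 0.00666).

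COPS7A, a further subunit, was lower at 79.7 ± 2.59 FPKM in ANKRD9 cells against 86.9 ± 0.840 FPKM in pcDNA3.1 cells (adjusted p = 0.0376, limma), and COPS4 was higher at 81.7 ± 1.04 FPKM in ANKRD9 cells against 75.3 ± 2.51 FPKM in pcDNA3.1 cells (adjusted p = 0.0491). COPS4 lost its call whichever library was left out (adjusted p from 0.0504 to 0.128), and COPS7A whichever was left out other than ANKRD9 replicate 3, with adjusted p between 0.0626 and 0.121. COPS5, the catalytic subunit that cleaves NEDD8 from cullins, gave 54.0, 58.6 and 58.9 FPKM with ANKRD9 and 46.4, 56.5 and 47.3 FPKM with pcDNA3.1. A single pcDNA3.1 library lay among the ANKRD9 values, and COPS5 did not pass (adjusted p = 0.0909) but did so without pcDNA3.1 replicate 2 (adjusted p = 0.0101). COPS9 (25.6 ± 0.890 FPKM in ANKRD9 cells and 22.5 ± 2.19 FPKM in pcDNA3.1 cells) likewise passed only without that library (adjusted p = 0.0360 against 0.0795). COPS3, at 48.6 ± 1.36 FPKM in ANKRD9 cells and 50.6 ± 1.28 FPKM in pcDNA3.1 cells, and COPS7B, at 13.9 ± 0.560 FPKM in ANKRD9 cells and 15.0 ± 0.635 FPKM in pcDNA3.1 cells, did not pass. Summed over the 8 genes the level was 375 ± 4.19 FPKM with ANKRD9 and 380 ± 13.0 FPKM with pcDNA3.1.

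**Figure D3:**
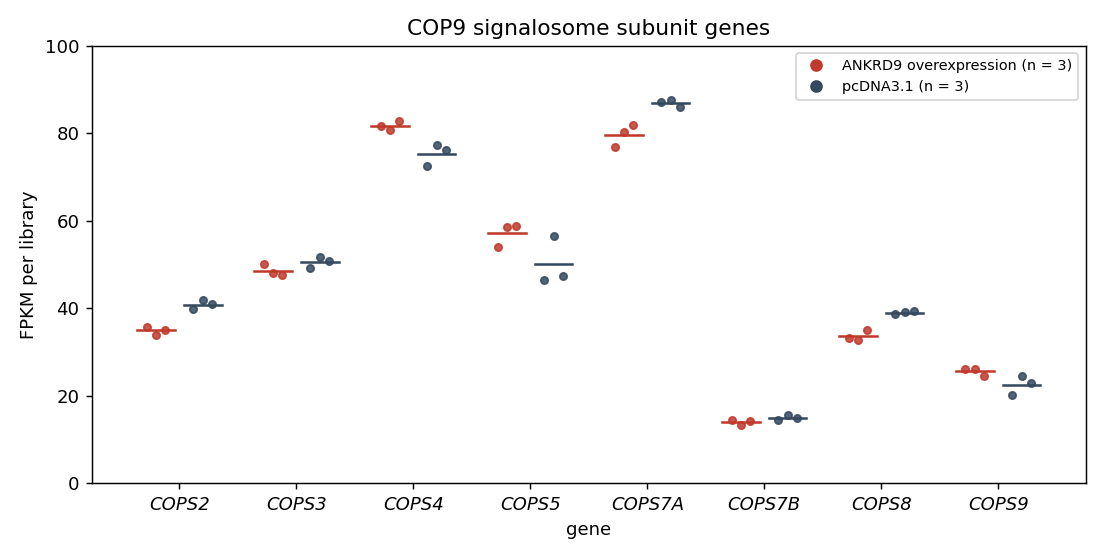
FPKM of the 8 COP9 signalosome genes, on a linear axis from 0; points are libraries and bars are group means. COPS2, COPS8 and COPS7A are lower and COPS4 is higher with ANKRD9, and a single pcDNA3.1 library of COPS5 at 56.5 FPKM lies among the ANKRD9 values.

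Of 44 tested F-box genes in the FBXO, FBXL and FBXW families, 14 were higher, 6 lower and 24 did not pass. As shares, 45.5% were called against 36.0% of all genes, 31.8% higher against 16.3% and 13.6% lower against 19.8%. Of the 14 higher calls 8 were lost when at least 1 of the libraries was left out, and of the 6 lower calls 4, with the libraries named below at each gene. The summed level of all 53 genes of these families in the table was 599 ± 3.94 FPKM with ANKRD9 and 574 ± 8.54 FPKM with pcDNA3.1 (SD, n = 3 each). This was 4.20 ± 0.0477 times the level of SKP1 with ANKRD9 and 3.35 ± 0.157 times with pcDNA3.1. By family, 7 of 25 FBXO genes were higher and 6 lower, 5 of 12 FBXL genes were higher and 2 of 7 FBXW genes were higher, with no FBXL or FBXW gene lower.

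FBXO2 and FBXO6 encode receptors for glycoproteins with N-linked sugars, and they lie next to each other on chromosome 21. FBXO2 (5667452-5672515, plus strand, GRCg6a) gave 12.3, 12.4 and 12.1 FPKM with ANKRD9 and 7.85, 7.18 and 6.72 FPKM with pcDNA3.1. Its 1.69-fold rise, a log2 difference of 0.69 ± 0.06 (SE; limma, adjusted p = 2.71e-04), was the largest among the 99 tested members after ANKRD9. FBXO6 (5661325-5667770, minus strand) gave 10.8, 10.7 and 11.5 FPKM with ANKRD9 and 9.04, 9.16 and 8.40 FPKM with pcDNA3.1, a log2 difference of 0.28 ± 0.05 (adjusted p = 0.00572). The spans of the pair overlap by 319 bases on opposite strands, and FBXO6 also overlaps MAD2L2. Without the strand setting, reads in the shared stretches cannot be told apart.

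FBXO32, known as atrogin-1, is a muscle receptor that rises in atrophy. It gave 4.41, 4.91 and 5.27 FPKM with ANKRD9 and 3.85, 3.34 and 3.41 FPKM with pcDNA3.1, without overlap, and rose 1.38-fold (log2 difference 0.37 ± 0.08 SE; limma, adjusted p = 0.00879). Of 12 genes of differentiated muscle tested beside it, 11 had a log2 difference above 0, with a median of 0.21. The summed level of the 16 genes of this list in the table was 1525 to 1746 FPKM in ANKRD9 cells and 1268 to 1584 FPKM in pcDNA3.1 cells. The part of these genes in the FBXO32 difference was not tested. The test called 8.33% of the 12 tested genes against 36.0% of all genes. This was the troponin gene TNNT2 (higher, 342 ± 23.0 FPKM in ANKRD9 cells and 268 ± 28.7 FPKM in pcDNA3.1 cells). FBXO40, another muscle F-box gene, was at 0.0468 FPKM with ANKRD9 and 0.0381 FPKM with pcDNA3.1 and was not tested. FBXO5, also called EMI1, inhibits the anaphase-promoting complex. It fell 1.36-fold, at 5.76, 5.34 and 4.66 FPKM with ANKRD9 and 7.08, 7.15 and 7.16 FPKM with pcDNA3.1 (log2 difference -0.38 ± 0.07 SE; adjusted p = 0.00584), and like SKP2 it stood beside the lower cell cycle genes. FBXO9 fell too, to 29.5 ± 0.597 FPKM in ANKRD9 cells against 34.2 ± 0.912 FPKM in pcDNA3.1 cells (adjusted p = 0.00634).

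The remaining FBXO calls were less firm. FBXO4 was higher at 3.44 ± 0.426 FPKM in ANKRD9 cells against 2.35 ± 0.393 FPKM in pcDNA3.1 cells, a log2 difference of 0.41 ± 0.11 (SE; limma, adjusted p = 0.0220) that missed the threshold without ANKRD9 replicate 1 or 3 (0.0556 and 0.0656) or pcDNA3.1 replicate 2 or 3 (0.0612 and 0.0698). FBXO46 was higher at 22.0 ± 1.20 FPKM in ANKRD9 cells against 19.1 ± 0.627 FPKM in pcDNA3.1 cells, FBXO33 at 21.2 ± 0.725 FPKM in ANKRD9 cells against 18.6 ± 0.774 FPKM in pcDNA3.1 cells, and FBXO11, a receptor of BCL6 in human cells, at 14.8 ± 0.658 FPKM in ANKRD9 cells against 13.1 ± 0.259 FPKM in pcDNA3.1 cells. FBXO46 lost its call without ANKRD9 replicate 3 or pcDNA3.1 replicate 1 or 2 (adjusted p between 0.0518 and 0.0624), FBXO33 without ANKRD9 replicate 1 or 3 or pcDNA3.1 replicate 2 (0.0651 to 0.0724), and FBXO11 without ANKRD9 replicate 2 or 3 or pcDNA3.1 replicate 2 or 3 (0.0651 to 0.0993). FBXO11 overlaps MSH6, at 18.3 FPKM, on the opposite strand.

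FBXO45, the F-box gene with the highest mean over all 6 libraries, was lower at 45.1 ± 1.25 FPKM in ANKRD9 cells against 49.2 ± 1.05 FPKM in pcDNA3.1 cells and FBXO7, linked to inherited parkinsonism in humans, at 19.3 ± 1.16 FPKM in ANKRD9 cells against 21.5 ± 0.399 FPKM in pcDNA3.1 cells. FBXO31, reported to act on cyclin D1 in human cells, was lower at 8.13 ± 0.574 FPKM in ANKRD9 cells against 9.56 ± 0.642 FPKM in pcDNA3.1 cells and FBXO39 at 1.53 ± 0.0333 FPKM in ANKRD9 cells against 2.22 ± 0.359 FPKM in pcDNA3.1 cells. FBXO45 lost its call whichever library was left out (0.0582 to 0.129), FBXO7 whichever was left out but ANKRD9 replicate 1 (0.0848 to 0.152), FBXO31 whichever was left out but pcDNA3.1 replicate 3 (0.0656 to 0.127), and FBXO39 whichever was left out but pcDNA3.1 replicate 2 (0.0570 to 0.0753; all limma, adjusted). FBXO39 overlaps TEKT1, at 1.23 FPKM, on the opposite strand. Under median-of-ratios scaling FBXO45, FBXO7 and FBXO31 also missed the threshold (0.0559, 0.0615 and 0.0530). FBXO3 (36.6 ± 1.35 FPKM in ANKRD9 cells and 33.0 ± 1.89 FPKM in pcDNA3.1 cells) and FBXO22 (34.3 ± 0.827 FPKM in ANKRD9 cells and 34.7 ± 1.71 FPKM in pcDNA3.1 cells), next in level to FBXO45, did not pass. FBXO3 passed under that scaling (adjusted p = 0.0456) and with limma-voom on recovered reads (0.0469).

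FBXL7, whose human product acts on the mitotic kinase Aurora A, was the strongest of the leucine-rich repeat receptors. It gave 5.65, 5.26 and 5.32 FPKM with ANKRD9 and 4.29, 4.01 and 3.93 FPKM with pcDNA3.1, a log2 difference of 0.34 ± 0.06 (SE; limma, adjusted p = 0.00410). FBXL14, a receptor of the repressor SNAI1, gave 13.3, 13.3 and 12.8 FPKM with ANKRD9 and 11.1, 11.1 and 9.94 FPKM with pcDNA3.1 (0.27 ± 0.05; adjusted p = 0.00697). It overlaps WNT5B, at 42.3 FPKM, on the opposite strand. All ANKRD9 values of both genes lay above those of pcDNA3.1.

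FBXL20 rose to 9.99 ± 0.384 FPKM in ANKRD9 cells against 8.64 ± 0.119 FPKM in pcDNA3.1 cells (adjusted p = 0.0170, limma), FBXL12 to 14.3 ± 0.563 FPKM in ANKRD9 cells against 11.6 ± 1.52 FPKM in pcDNA3.1 cells (0.0300) and FBXL5, the iron-sensing receptor of iron regulatory protein 2 and the most abundant gene of its family, to 23.7 ± 1.03 FPKM in ANKRD9 cells against 20.9 ± 1.13 FPKM in pcDNA3.1 cells (0.0402). FBXL20 missed the threshold without ANKRD9 replicate 2 (0.0696) or pcDNA3.1 replicate 3 (0.0555), while FBXL12 and FBXL5 passed in only 1 of the 6 fits with a library left out, that without pcDNA3.1 replicate 2 (0.0559 to 0.0978 and 0.0708 to 0.120 in the others). FBXL15, at 14.0 ± 0.145 FPKM in ANKRD9 cells and 13.1 ± 0.561 FPKM in pcDNA3.1 cells, did not pass. FBXL8 was the gene of this family with the lowest log2 difference, -0.18 ± 0.06, and did not pass (adjusted p = 0.0570).

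FBXW7, the receptor of cyclin E, MYC and Notch, gave 5.80, 5.31 and 5.72 FPKM with ANKRD9 and 4.51, 4.38 and 4.37 FPKM with pcDNA3.1, without overlap. It rose 1.27-fold, a log2 difference of 0.29 ± 0.05 (SE; limma, adjusted p = 0.00634). FBXW8, the partner of CUL7, rose to 11.8 ± 1.01 FPKM in ANKRD9 cells against 9.83 ± 0.723 FPKM in pcDNA3.1 cells (adjusted p = 0.0385), a call lost without ANKRD9 replicate 1 or 2 or pcDNA3.1 replicate 2 or 3 (0.0735 to 0.126). FBXW9 (45.2 ± 2.87 FPKM in ANKRD9 cells and 43.5 ± 3.01 FPKM in pcDNA3.1 cells), FBXW5 (24.6 ± 0.288 FPKM in ANKRD9 cells and 23.2 ± 0.744 FPKM in pcDNA3.1 cells) and FBXW4 (17.1 ± 2.20 FPKM in ANKRD9 cells and 16.7 ± 0.751 FPKM in pcDNA3.1 cells) were the most abundant of the family and did not pass. FBXW11, the beta-TrCP paralog that recognises phosphorylated beta-catenin and IkB, stood at 8.39 ± 0.330 FPKM in ANKRD9 cells and 8.48 ± 0.307 FPKM in pcDNA3.1 cells, and it overlaps ETF1, at 47.8 FPKM, on the same strand.

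**Figure D4:**
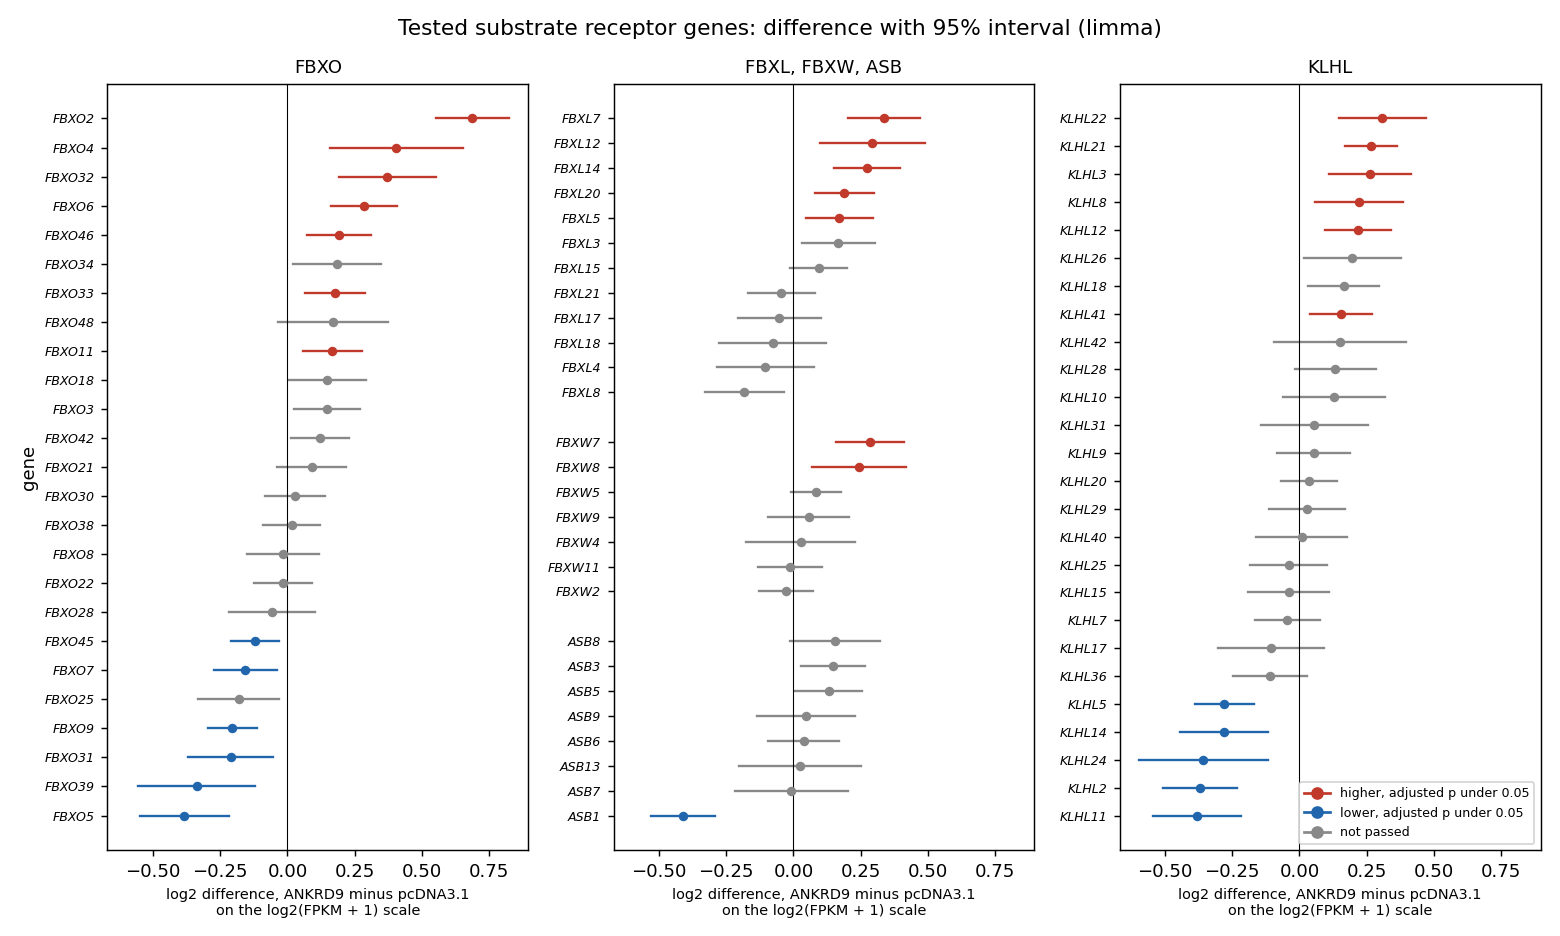
Log2 difference, ANKRD9 minus pcDNA3.1 on the log2(FPKM + 1) scale, for the 78 tested receptor genes, with 95% intervals from limma; colours mark genes past adjusted p 0.05. FBXO2 lies farthest to the right at 0.69 and ASB1 farthest to the left at -0.41.

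Of 26 tested KLHL receptors of CUL3, 6 were higher, 5 lower and 15 did not pass. The shares of 23.1% higher and 19.2% lower were near those of all genes, 16.3% and 19.8%. The summed level of all 35 KLHL genes in the table was 241 ± 4.60 FPKM with ANKRD9 and 233 ± 2.98 FPKM with pcDNA3.1. KLHL41, a sarcomere protein whose loss causes nemaline myopathy in humans, was the most abundant, with 57.4, 61.4 and 57.9 FPKM with ANKRD9 and 50.7, 51.8 and 55.9 FPKM with pcDNA3.1. It was called higher narrowly (log2 difference 0.16 ± 0.05 SE; limma, adjusted p = 0.0435) and missed the threshold whichever library was left out other than pcDNA3.1 replicate 3 (0.0696 to 0.150). KLHL40, a muscle gene of the same disease group, was level at 4.77 ± 0.411 FPKM in ANKRD9 cells and 4.73 ± 0.289 FPKM in pcDNA3.1 cells, and KLHL31, also known from muscle, stood at 2.70 ± 0.233 FPKM in ANKRD9 cells and 2.56 ± 0.294 FPKM in pcDNA3.1 cells; neither passed.

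KLHL21, which acts on Aurora B in human mitosis, gave 18.6, 18.2 and 18.2 FPKM with ANKRD9 and 15.6, 14.9 and 14.8 FPKM with pcDNA3.1, a log2 difference of 0.27 ± 0.04 (SE; limma, adjusted p = 0.00282). KLHL22, whose human product acts on PLK1, gave 5.15, 5.38 and 5.98 FPKM with ANKRD9 and 4.41, 4.38 and 3.96 FPKM with pcDNA3.1 (0.31 ± 0.07; adjusted p = 0.0118). Both were clear of the pcDNA3.1 values. KLHL9, a separate receptor that also acts on Aurora B, did not pass, at 8.16 ± 0.376 FPKM in ANKRD9 cells and 7.84 ± 0.456 FPKM in pcDNA3.1 cells. KLHL12, which acts on the COPII coat in collagen secretion, rose to 24.0 ± 0.822 FPKM in ANKRD9 cells against 20.5 ± 1.22 FPKM in pcDNA3.1 cells (adjusted p = 0.0163), but not past the threshold without ANKRD9 replicate 2 (0.0650) or pcDNA3.1 replicate 3 (0.0543).

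KLHL2 and KLHL3 encode closely related receptors of WNK kinases, and they moved in opposite directions. KLHL2 gave 8.67, 7.68 and 7.61 FPKM with ANKRD9 and 10.6, 10.9 and 10.3 FPKM with pcDNA3.1, and it fell 1.33-fold (log2 difference -0.37 ± 0.06 SE; limma, adjusted p = 0.00327). KLHL3 rose to 2.03 ± 0.0419 FPKM in ANKRD9 cells against 1.53 ± 0.0516 FPKM in pcDNA3.1 cells (0.26 ± 0.07; adjusted p = 0.0181), a call lost without ANKRD9 replicate 2 or 3 or pcDNA3.1 replicate 2 (0.0516 to 0.0593). KLHL3 overlaps HNRNPA0, at 18.8 FPKM, on the same strand, so that its reads are uncertain. KLHL8 also rose, to 2.51 ± 0.114 FPKM in ANKRD9 cells against 2.01 ± 0.152 FPKM in pcDNA3.1 cells (0.0424), and missed the threshold whichever library was left out other than pcDNA3.1 replicate 1 (0.0616 to 0.130). It overlaps NUDT9, at 5.69 FPKM, on the opposite strand.

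KLHL11 gave 3.84, 3.83 and 3.99 FPKM with ANKRD9 and 5.98, 5.16 and 5.01 FPKM with pcDNA3.1, a 1.38-fold fall (log2 difference -0.38 ± 0.07 SE; limma, adjusted p = 0.00546). Its neighbour KLHL10, whose span ends 170 bases away on chromosome 27 of GRCg6a, did not pass. KLHL10 stood at 2.22 ± 0.225 FPKM in ANKRD9 cells and 1.94 ± 0.155 FPKM in pcDNA3.1 cells. It overlaps NT5C3B, at 44.3 FPKM, on the opposite strand. KLHL5 fell to 17.6 ± 0.874 FPKM in ANKRD9 cells against 21.6 ± 0.465 FPKM in pcDNA3.1 cells (adjusted p = 0.00410). KLHL14 fell to 2.79 ± 0.134 FPKM in ANKRD9 cells against 3.61 ± 0.292 FPKM in pcDNA3.1 cells (0.0177; 0.0658 without ANKRD9 replicate 2) and KLHL24, a receptor of keratin 14 in human skin, to 3.72 ± 0.439 FPKM in ANKRD9 cells against 5.06 ± 0.712 FPKM in pcDNA3.1 cells (0.0312; 0.0914, 0.0592 and 0.0651 without ANKRD9 replicate 1, ANKRD9 replicate 2 and pcDNA3.1 replicate 1).

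The ASB receptors, which like ANKRD9 combine ankyrin repeats with a cullin ligase role, were mostly low and level. Of 17 in the table, 8 reached 1 FPKM, and 1 of these was lower and none higher. That was 12.5% called against 36.0% of all genes. ASB1 gave 3.99, 3.85 and 4.03 FPKM with ANKRD9 and 5.70, 5.46 and 5.60 FPKM with pcDNA3.1. The groups were well apart, and ASB1 fell 1.41-fold, a log2 difference of -0.41 ± 0.05 (SE; limma, adjusted p = 0.00118). ASB8, at 24.2 ± 0.764 FPKM in ANKRD9 cells and 21.7 ± 2.21 FPKM in pcDNA3.1 cells, ASB6, at 11.4 ± 0.784 FPKM in ANKRD9 cells and 11.0 ± 0.295 FPKM in pcDNA3.1 cells, and ASB3, at 5.25 ± 0.146 FPKM in ANKRD9 cells and 4.64 ± 0.123 FPKM in pcDNA3.1 cells, were the other abundant genes and did not pass. ASB2, a muscle receptor of filamins, was at 0.182 FPKM with ANKRD9 and 0.195 FPKM with pcDNA3.1, under the minimum.

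**Figure D5:**
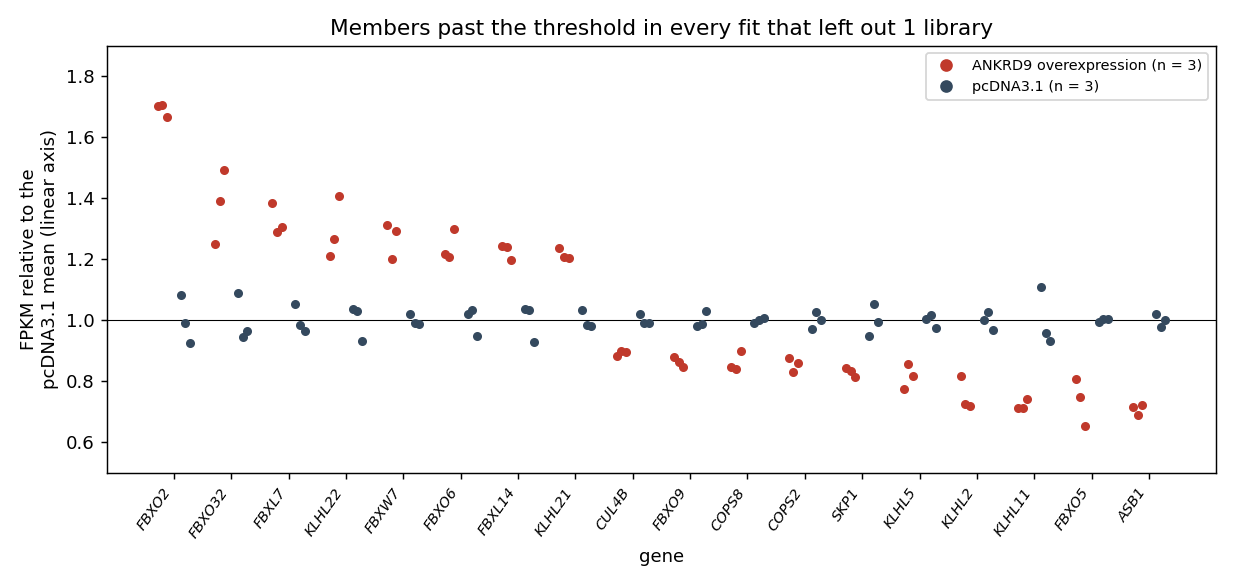
FPKM of the members other than ANKRD9 that passed the threshold in all 6 fits that left out 1 library, each divided by its pcDNA3.1 mean, on a linear axis; points are libraries. The mean of FBXO2 stands 1.69-fold above its pcDNA3.1 mean and that of ASB1 lowest, with no ANKRD9 point between the pcDNA3.1 points of the same gene.

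The 27 members under 1 FPKM were 9 ASB, 9 KLHL, 6 FBXO and 3 FBXL genes. KLHL23 gave 1.33, 1.70 and 1.09 FPKM with ANKRD9 and 0.748, 0.563 and 0.561 FPKM with pcDNA3.1, on 23 to 69 reads. Its groups did not overlap, but it was not part of the test. The ANKRD9 values also lay above those of pcDNA3.1 without overlap for KLHL33 (0.408 FPKM in ANKRD9 cells and 0.155 FPKM in pcDNA3.1 cells, on 2 to 43 reads), FBXL2 (65 to 114 reads), FBXO41 (26 to 66 reads), KLHL32 (0 to 11 reads), KLHL34 (0 to 7 reads) and ASB4 (0 to 3 reads). These 7 were 25.9% of the 27, against 14.7% of all genes under the minimum with a read, and none was tested. KLHL35 and FBXL16 were listed at 0 in all pcDNA3.1 libraries, with a mean of 0.00306 and 0.00409 FPKM with ANKRD9. Both had 0 to 1 reads, and KLHL35 was above 0 only in ANKRD9 replicate 3 and FBXL16 only in ANKRD9 replicate 1.

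Around the members, few genes of the NEDD8 pathway passed. Of 18 genes for NEDD8 attachment, removal and cullin exchange, 2 were lower and 16 did not pass, that is 11.1% called against 36.0% of all genes. The list held GPS1, a COP9 signalosome gene without a COPS symbol, and AMBRA1, which was also counted among the other adaptors below. Neither passed. CAND1, the exchange factor that strips receptors from unmodified cullins, had 40.4 ± 1.58 FPKM in ANKRD9 cells and 45.0 ± 0.943 FPKM in pcDNA3.1 cells (log2 difference -0.15 ± 0.04 SE; limma, adjusted p = 0.0260), and DCUN1D3, a NEDD8 ligase cofactor, at 4.94 ± 0.302 FPKM in ANKRD9 cells and 5.75 ± 0.129 FPKM in pcDNA3.1 cells (adjusted p = 0.0402). Both lost the call without ANKRD9 replicate 1, ANKRD9 replicate 2 or any one pcDNA3.1 library (0.0511 to 0.10 and 0.0558 to 0.119). NEDD8 itself stood at 58.0 ± 5.20 FPKM in ANKRD9 cells and 50.3 ± 11.0 FPKM in pcDNA3.1 cells, and UBA3, NAE1, UBE2M and UBE2F, the enzymes of its attachment, did not pass.

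Of 14 ubiquitin E1, E2 and partner genes, 3 were higher and 2 lower, a share called of 35.7% against 36.0% of all genes. CDC34, the E2 that builds chains on SCF substrates, gave 23.7, 25.6 and 21.7 FPKM with ANKRD9 and 17.9, 18.1 and 18.4 FPKM with pcDNA3.1, a log2 difference of 0.36 ± 0.06 (SE; limma, adjusted p = 0.00364). VCP, the segregase, rose to 178 ± 2.14 FPKM in ANKRD9 cells against 157 ± 4.55 FPKM in pcDNA3.1 cells. UBE2L3, the E2 of ARIH1, fell to 226 ± 6.94 FPKM in ANKRD9 cells against 254 ± 2.28 FPKM in pcDNA3.1 cells and UBXN7 to 3.60 ± 0.243 FPKM in ANKRD9 cells against 4.89 ± 0.571 FPKM in pcDNA3.1 cells (0.0515 without ANKRD9 replicate 2). The row named ARIH1 was higher, at 842 ± 152 FPKM in ANKRD9 cells and 497 ± 35.2 FPKM in pcDNA3.1 cells, but it is 1002 bases long and lies within a stretch shared with an uncharacterised gene at a like level on the opposite strand, so that its value is uncertain.

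Among 64 other adaptors and receptors, 11 were higher and 15 lower, 40.6% called against 36.0%. SOCS1, an inhibitor of cytokine signalling with a SOCS box, gave 71.9, 73.7 and 65.6 FPKM with ANKRD9 and 45.3, 45.8 and 50.6 FPKM with pcDNA3.1 (log2 difference 0.57 ± 0.06 SE; limma, adjusted p = 6.78e-04). CISH, of the same family, fell to 56.3 ± 4.15 FPKM in ANKRD9 cells against 86.1 ± 9.51 FPKM in pcDNA3.1 cells (-0.60 ± 0.09). ENC1, a kelch protein, rose to 22.8 ± 0.729 FPKM in ANKRD9 cells against 17.8 ± 0.394 FPKM in pcDNA3.1 cells and KLHDC10 to 11.9 ± 0.273 FPKM in ANKRD9 cells against 9.95 ± 0.0589 FPKM in pcDNA3.1 cells. DTL, the CUL4 receptor active in S phase, fell to 3.83 ± 0.176 FPKM in ANKRD9 cells against 6.27 ± 0.778 FPKM in pcDNA3.1 cells and CCNF, the F-box cyclin, to 4.21 ± 0.280 FPKM in ANKRD9 cells against 5.94 ± 0.314 FPKM in pcDNA3.1 cells, again beside the lower cell cycle genes. Of 9 listed genes tied to ANKRD9 in human cells, 4 had a row of that symbol. Of these 4 genes 1 was called, 25% against 36.0% of all genes. This was IMPDH2, at 108 ± 4.45 FPKM in ANKRD9 cells and 118 ± 1.55 FPKM in pcDNA3.1 cells (adjusted p = 0.0469, limma). It lost its call whichever library was left out other than ANKRD9 replicate 1 (0.0766 to 0.163). These are RNA levels, which do not measure the IMPDH2 protein. CTPS1 (64.7 ± 0.538 FPKM in ANKRD9 cells and 64.4 ± 0.654 FPKM in pcDNA3.1 cells), CTPS2 (3.00 ± 0.297 FPKM in ANKRD9 cells and 2.85 ± 0.137 FPKM in pcDNA3.1 cells) and the elongin gene ELOC (37.0 ± 0.712 FPKM in ANKRD9 cells and 34.6 ± 1.25 FPKM in pcDNA3.1 cells) did not pass.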

How the data were processed

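Polyadenylated RNA was sequenced from NEBNext Ultra libraries, per the labels' protocols. The submitters' processing notes name CASAVA and the build GRCg6a (galGal6). For the aligner, the counting program and its strand setting, the sources used here give nothing. The authors deposited FPKM per gene in 1 table with a column for each of the 6 libraries; the number of value columns that matched no sample was 0. FPKM times gene length was a whole multiple of 1 step for 100% of values above 0 in every library (tolerance 0.01), which gave the recovered reads; reads are not independent molecules. Testing used limma (version 3.58.1, under R 4.3.3) for genes averaging 1 FPKM or more, on the log2(FPKM + 1) scale, group as the only term, eBayes with a mean trend, Benjamini-Hochberg adjustment. The fit was tested on simulated reads drawn with the same dispersion for every gene. That setting cannot test variation between libraries that differs from gene to gene. No pair of libraries of a group agreed within sampling noise (chi-square per degree of freedom between 2.58 and 7.77 over recovered reads). The members, gene lists and tests were chosen with earlier results of these data known. Named were ANKRD9, the tested CUL, COPS, RING and adaptor genes, receptors past the threshold or among the 3 most abundant of a family, and up to 6 called genes of each other ubiquitin list; other genes named were chosen after their values were seen. Listed genes without a row of that symbol were not analysed here. Chromosome names came from gene identifiers shared with NCBI's table for assembly GRCg7b (80.7% matched), with no coordinates taken from it.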

Additional observations from a re-analysis of the deposited data

How the results depend on the processing

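The labels do not say whether same-numbered libraries were paired. Correlations of same-numbered deviations were -0.20, 0.03 and -0.08, which with 3 libraries a group cannot decide it. With the replicate number as a block 10 members were lower and 16 higher. In that fit 0 of the NEDD8 pathway genes and 0 of the ANKRD9-linked genes were called. CUL4B (adjusted p = 0.0569) and UBE2L3 (0.0526), called in every other alternative, were not called with the block (limma). Leaving out single libraries gave 12 to 19 higher and 11 to 14 lower members, 1255 to 1764 higher genes in the whole table, 0 to 2 NEDD8 pathway genes and 0 to 1 ANKRD9-linked genes. Without a filter 1 NEDD8 pathway gene and 0 ANKRD9-linked genes were called, and ANKRD9-linked genes were also at 0 under median-of-ratios scaling and robust eBayes. Across those 3, pseudocount 0.1, means of at least 5 FPKM, TMM scaling and limma-voom on recovered reads (chosen after seeing the data), members higher ranged from 17 to 27 and members lower from 13 to 18. No called member changed direction in any of the 14 alternatives, and 18 of 40 called members kept the call in every one that tested them. edgeR and DESeq2 on recovered reads, both planned, were not run; limma-voom was fitted to those reads instead. The median log2 difference of all genes lay between -0.0094 and 0.0035 under every alternative, so no scaling moved it by 0.1. Members under about 100 reads are limited by depth.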
